A study of Rattus norvegicus with 11 samples.

Results

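The microRNAs miR-10, miR-99, miR-100 and miR-125 were followed in rat liver as all rows of the deposited microRNA table named miR-10a, miR-10b, miR-99a, miR-99b, miR-100, miR-125a or miR-125b, either arm and every gene copy. There were 15 such rows among 1331 rows, of which 533 carry names of known rat microRNAs and 798 are predicted. Each of the table's 11 columns is the liver of 1 male Sprague-Dawley rat, a stock of outbred animals, aged 4 weeks when treatment began. The TPN group of 5 rats lived on total parenteral nutrition, feeding through a vein that bypasses the gut, while the 6 Control rats ate standard chow and received 0.9% saline intravenously. Both treatments lasted 7 days. Rats are called by group and by the number in their label. The title of the series sets the work in intestinal failure-associated liver disease, and the design compares TPN with Control.

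A microRNA is cut from a hairpin precursor that yields a 5p and a 3p arm, and the seed near the 5′ end of the loaded arm does most of the pairing with target messenger RNAs. miR-10, miR-99 and miR-100 resemble each other in sequence. miR-10a and miR-10b lie inside Hox gene clusters, miR-99 and miR-100 are known as brakes on mTOR and insulin-like growth factor signalling, and miR-125, the vertebrate relative of worm lin-4, is known for roles in blood cell development and p53 control. Members of the miR-99, miR-100 and miR-125 families are transcribed in clusters with a let-7 gene between them. In the RefSeq gene table (GRCr8), Mir10a lay between Hoxb5 and Hoxb4, Mir10b within Hoxd4, Mir99b with let-7e and Mir125a on chromosome 1, Mir100 with let-7a-2 and Mir125b1 on chromosome 8, and Mir99a with let-7c-1 and Mir125b2 on chromosome 11.

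The mature sequences, from RefSeq (GRCr8), are shown because the relations between members and the assignment of reads between paralogues rest on them. Capitals mark the seed, bases 2 to 8. Of the 15 rows, 14 matched an entry, and miR-99a-5p is named only.
miR-10a-5p: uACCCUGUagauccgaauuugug
miR-10b-5p: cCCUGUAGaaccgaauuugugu
miR-99b-5p: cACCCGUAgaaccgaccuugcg
miR-100-5p: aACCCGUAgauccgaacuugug
miR-125a-5p: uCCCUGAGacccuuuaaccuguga
miR-125b-5p: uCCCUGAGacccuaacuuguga
miR-99a-3p: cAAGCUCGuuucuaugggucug
miR-99b-3p: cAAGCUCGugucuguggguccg
Their places on the plus strand of GRCr8 are chr10:81779730-81779752 for miR-10a-5p, chr3:80035886-80035907 for miR-10b-5p, chr1:67350070-67350091 for miR-99b-5p, chr8:50798307-50798328 for miR-100-5p and chr1:67350689-67350712 for miR-125a-5p. miR-125b-5p is made from both Mir125b1 and Mir125b2, and its listed place is the Mir125b2 copy at chr11:29732588-29732609.

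The sequences fall into groups by seed. miR-99b-5p and miR-100-5p share ACCCGUA, and miR-125a-5p and miR-125b-5p share CCCUGAG with miR-351-5p, an X-linked microRNA. miR-99a-5p matched no entry, so its seed was not compared and it was not placed in a group. As registered, miR-10b-5p starts 2 bases further in than miR-10a-5p, so their seeds are different words, although 20 of the 21 bases that overlap match and the remaining one is U12A, with positions counted from 1 at the 5′ end of miR-10a-5p. How the authors' counting treated reads that start before the registered 5′ end is not given in the sources used here. miR-125a-5p and miR-125b-5p share their first 13 bases. None of the 13 rows that averaged 1 CPM or more had values identical to those of another rat-named row at that level.

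Library totals, recovered as whole reads from the deposited values, ran from 1404858 to 10189899 in Control and from 7552545 to 14788757 in TPN (exact permutation p = 0.0866, two-sided). Control 5, 12 and 19 had the fewest reads and stood apart by their predicted rows, which held between 0.517% and 2.0% of their reads against 0.0965% to 0.145% in the other 8 libraries. The hepatocyte marker miR-122-5p held 2.18% to 33.5% of the reads of a library. Of the nerve and brain marker list, miR-124-3p had 1 read in all libraries together. The other rows of that list averaged 31.3 CPM (miR-128-3p), 6.79 (miR-9a-5p), 0.593 (miR-128-1-5p) and 0.129 CPM (miR-9a-3p) over the 11 rats. Levels below are in CPM, the reads of a row scaled to a library total of 1000000. They are shares of a library, so levels of different microRNAs compare reads and not molecules, and fewer cells of a type and less RNA per cell cannot be told apart in whole liver.

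The 15 rows together held 1.10% ± 0.119 (SD, n = 6) of all reads in the Control rats and 0.957% ± 0.170 (SD, n = 5) in the TPN rats. The Control rats ran from 1.01% to 1.33% and the TPN rats from 0.799% to 1.16%, so the groups overlapped. The difference of -0.147 percentage points did not pass a two-sided exact permutation test (p = 0.126, adjusted p = 0.266 over 3 shares). With reads outside the 10 most abundant rows as the total, the difference was 0.81 percentage points. That total is smaller, so only the signs of these differences compare. The miR-10 rows held 0.680% ± 0.177 in Control and 0.545% ± 0.119 in TPN (exact permutation adjusted p = 0.266), and the miR-99, miR-100 and miR-125 rows 0.424% ± 0.197 and 0.412% ± 0.175 (exact permutation adjusted p = 0.929). The exact 95% binomial interval of the joint share spanned at most 0.0332 percentage points in any library and covers counting error only, so the spread between rats was far wider than counting error.

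rno-miR-10a-5p (the prefix rno marks the rat and is given only where a member is introduced), a Hox cluster microRNA, supplied 58.2% of all member CPM and was the 12th most abundant of the 533 rat-named rows. Its Control levels had a lowest value of 4382 CPM, a median of 6643 and a highest of 8913. In TPN it had 7101 CPM in TPN 6, 4880 in TPN 8, 3926 in TPN 11, 5299 in TPN 15 and 5561 in TPN 16. Only TPN 11 lay below every Control rat, and TPN 6 lay above the Control median. The means were 6611 CPM ± 1668 (SD, n = 6) in the Control rats and 5353 CPM ± 1158 (SD, n = 5) in the TPN rats, a log2 fold change of -0.29 ± 0.23 (SE) on the log2(CPM + 1) scale with an adjusted p of 0.415 (limma-trend, Benjamini-Hochberg). It turned positive with TMM, RLE and upper-quartile scaling (0.19, 0.044 and 0.36).

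rno-miR-10b-5p, its paralogue in the HoxD cluster, was far rarer and had the largest log2 fold change of the 13 tested members in CPM. The largest was instead that of miR-99a-5p with TMM (0.59), upper-quartile scaling (0.76) and limma-voom (0.58), of miR-125a-3p with edgeR (0.73), of miR-99a-3p with DESeq2 (-0.88) and in rats numbered 10 or more (-0.92), and of miR-125a-5p without Control 5, 12 and 19 (-0.76). Control levels ran from 64.2 CPM over a median of 178 to 330.3 CPM. The TPN rats had 155 CPM (TPN 6), 71.6 (TPN 8), 78.5 (TPN 11), 57.0 (TPN 15) and 95.6 (TPN 16), 5 of 5 below the Control median, though Control 12 and 18, with 74.0 and 64.2 CPM, lay among them. The means of 187 CPM ± 113 (SD, n = 6) and 91.5 CPM ± 38.1 (SD, n = 5) gave a log2 fold change of -0.84 ± 0.45 (SE), which did not pass (limma-trend adjusted p = 0.296, 95% interval -1.81 to 0.12). The value was negative under every alternative run, from -1.33 to -0.20, and its adjusted p ran from 0.169 to 0.813. The smallest of these came without Control 18, where the log2 fold change was -1.10. Without Control 5, 12 and 19 it was -0.73.

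**Figure D1:**
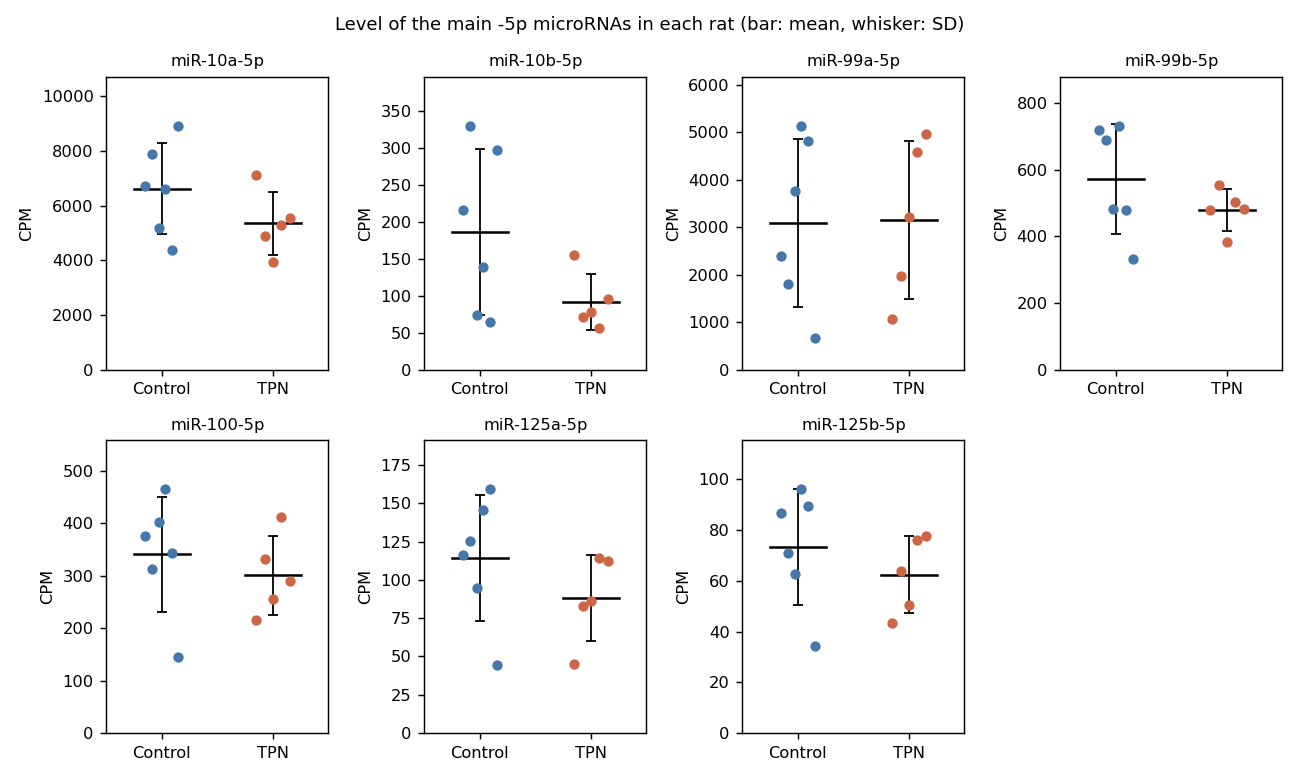
CPM of the 7 main 5p microRNAs (vertical axes, linear from 0) in each Control (blue) and TPN (orange) rat, with the mean as a bar and the SD as whiskers. The groups overlap in each panel, and all 5 TPN values of miR-10b-5p lie below its Control median of 178 CPM.

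rno-miR-99a-5p, the second most abundant member with 30.1% of member CPM, had a wide spread within each group and group means that were close. Control levels ran from 661 CPM (Control 19) over a median of 3082 to 5134 CPM (Control 16). In TPN it had 1058 CPM in TPN 6, 1966 in TPN 8, 3206 in TPN 11, 4575 in TPN 15 and 4971 in TPN 16. Both groups thus covered nearly the same span, and the highest rat of all had 7.76 times the level of the lowest. The means were 3096 CPM ± 1770.0 (SD, n = 6) and 3155 CPM ± 1668 (SD, n = 5), with a log2 fold change of 0.11 ± 0.55 (SE, limma-trend adjusted p = 0.959). Its 95% interval, -1.07 to 1.29, leaves differences of either sign within reach, and without Control 5, 12 and 19 the value was -0.38.

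rno-miR-99b-5p and rno-miR-100-5p were less variable. miR-99b-5p ran from 331 CPM over a median of 585 to 732 CPM in Control, and had 479 (TPN 6), 554 (TPN 8), 382 (TPN 11), 502 (TPN 15) and 482 CPM (TPN 16) in TPN, all within the Control range. Its log2 fold change was -0.21 ± 0.23 (SE, limma-trend adjusted p = 0.598). miR-100-5p ran from 144 CPM over a median of 359 to 465 CPM in Control and had 215 (TPN 6), 331 (TPN 8), 256 (TPN 11), 413 (TPN 15) and 289.6 CPM (TPN 16) in TPN, again within the Control range. Its log2 fold change was -0.13 ± 0.29 (SE, limma-trend adjusted p = 0.826). In Control 19, the rat with the lowest miR-99a-5p, both were also at their lowest.

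rno-miR-125a-5p and rno-miR-125b-5p were less abundant, and their groups overlapped too. miR-125a-5p ran from 44.4 CPM over a median of 121 to 159 CPM in Control and had 44.7 (TPN 6), 82.9 (TPN 8), 86.2 (TPN 11), 114 (TPN 15) and 112 CPM (TPN 16) in TPN. Each TPN value was under the Control median but above the lowest Control rat, and the log2 fold change was -0.34 ± 0.35 (SE, limma-trend adjusted p = 0.549). miR-125b-5p ran from 34.1 CPM over a median of 78.8 to 96.2 CPM in Control and had 43.4 (TPN 6), 64.0 (TPN 8), 50.5 (TPN 11), 76.2 (TPN 15) and 77.7 CPM (TPN 16) in TPN. It had the same position in the TPN rats, with a log2 fold change of -0.19 ± 0.29 (SE, limma-trend adjusted p = 0.718). miR-351-5p, which shares their seed, averaged 16.4 CPM ± 4.71 (SD, n = 6) and 14.6 CPM ± 3.10 (SD, n = 5), with a log2 fold change of -0.13 ± 0.26 (SE, limma-trend adjusted p = 0.797). With TMM and upper-quartile scaling the values of miR-99b-5p, miR-100-5p, miR-125a-5p and miR-125b-5p were positive, and with RLE all of these but that of miR-125a-5p.

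By mean level over the 11 rats the order was miR-10a-5p, miR-99a-5p, miR-99b-5p, miR-100-5p, miR-10b-5p, miR-125a-5p and miR-125b-5p. Most neighbours in that order kept it in nearly all rats. miR-10a-5p exceeded miR-99a-5p in 10 of 11 rats, and miR-99a-5p exceeded miR-99b-5p, and miR-99b-5p exceeded miR-100-5p, in 11 of 11. miR-100-5p exceeded miR-10b-5p in 9 of 11, and miR-125a-5p exceeded miR-125b-5p in 11 of 11. miR-10b-5p and miR-125a-5p were not separated, since the first was higher in only 4 of 11 rats.

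A mean of 1 CPM or more admitted 13 of the 15 rows to the fit, with 535 rows in all. None of the 13 was called at an adjusted p under 0.05, and neither was any other row (0% of rows called, limma-trend). At an unadjusted p under 0.05 none of the 13 passed, against 11.4% of all rows. That share of all rows rested on single rats: it was 24.5%, 27.7% and 28.8% without Control 7, 16 and 18, 4.86% and 7.29% without Control 5 and 19, and 4.11%, 5.61% and 4.3% without TPN 11, 15 and 16. Leaving out Control 12, Control 18 or TPN 6, 1 of the 13 passed that unadjusted cut, against 7.66%, 28.8% and 8.04% of all rows. In rats numbered below 10, which are only Control 5, Control 7, TPN 6 and TPN 8, 2 of the 13 passed it, against 3.55% of all rows. Without Control 5, 12 and 19 together the count of members called stayed at 0, and 1 of 13 had an unadjusted p under 0.05, against 8.22% of all rows. In none of the 13 did all TPN rats lie on one side of all Control rats, against 1.5% of all rows. In CPM 11 of the 13 values were negative, against 2 with TMM, 4 with RLE and 2 with upper-quartile scaling. The members' median log2 fold change in CPM was -0.21, but that of the 280 rat-named rows was -0.26 and 8 of the 13 lay above it. With TMM, RLE and upper-quartile scaling the rat-named median moved to 0.16, 0.037 and 0.31, the members' median to 0.27, 0.13 and 0.39, and 9, 9 and 10 of the 13 lay above the rat-named median. DESeq2, which called 21.1% of all rows, called 0 of the 13, as did edgeR and limma-voom (0% of all rows each).

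**Figure D2:**
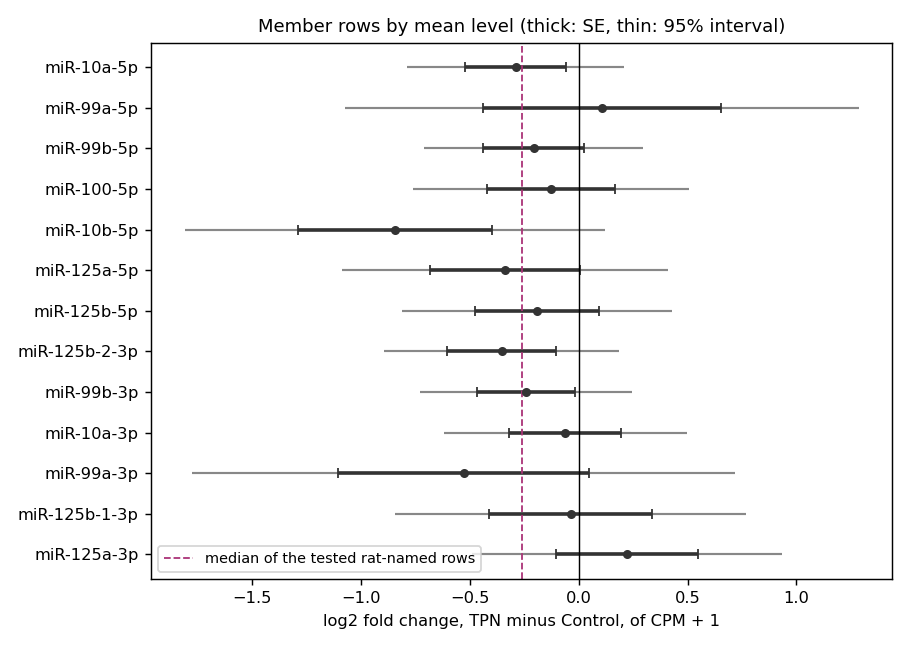
Log2 fold change of CPM + 1, TPN minus Control (horizontal axis), for the 13 tested member rows in order of mean level, with the SE (thick) and the 95% interval (thin). Each interval includes 0, and the values lie around the dashed line, the rat-named median of -0.26, both of which move with the scaling.

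Most 3p arms were minor products of these hairpins. Of the 8 3p rows, 6 entered the fit, and their log2 fold changes ran from -0.53 ± 0.58 (miR-99a-3p) to 0.22 ± 0.33 (miR-125a-3p), with none called by limma-trend (smallest adjusted p of the 6, 0.354 for miR-125b-2-3p). Summed over the rats, the reads of miR-10a-5p were 1079 times those of miR-10a-3p, those of miR-99b-5p 49.3 times those of miR-99b-3p, and those of miR-125a-5p 60.8 times those of miR-125a-3p. Those of miR-125b-5p, which pools both of its genes, were only 3.73 times those of miR-125b-2-3p, so that arm was not shown to be minor. The rarest were miR-100-3p, with 8 reads in Control and 3 in TPN, and miR-10b-3p, with 4 and 1, which is too few to compare the groups.

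Since miR-125b-5p comes from both of its genes, the 3p arms are what tells them apart. miR-125b-2-3p, from the chromosome 11 cluster of miR-99a, averaged 21.9 CPM ± 5.70 (SD, n = 6) in the Control rats and 16.7 CPM ± 3.43 (SD, n = 5) in the TPN rats. The TPN rats had 17.2 (TPN 6), 19.1 (TPN 8), 12.6 (TPN 11), 13.8 (TPN 15) and 20.7 CPM (TPN 16), and TPN 11 and TPN 15 lay below every Control rat. The log2 fold change was -0.35 ± 0.25 (SE, limma-trend adjusted p = 0.354). miR-125b-1-3p, from the chromosome 8 cluster of miR-100, averaged 2.51 CPM ± 1.73 (SD, n = 6) and 2.29 CPM ± 1.12 (SD, n = 5). Over all rats, 1520 reads came from the first and 202 from the second.

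The arms of miR-99a ran in opposite directions over the rats. Control 19, which had the lowest miR-99a-5p of all rats at 661 CPM, had the highest miR-99a-3p at 12.97 CPM (38 reads), and TPN 6, next lowest for the 5p arm, was next highest for the 3p arm with 3.73 CPM (32 reads). Control 18, with 4815 CPM of the 5p arm, had 0.375 CPM (3 reads) of the 3p arm, and TPN 11, with 3206 CPM, had 0 reads, which allows up to 0.350 CPM. There were therefore 51 reads of the 5p arm for each read of the 3p arm in Control 19 and 12857 in Control 18. Over the 11 rats Pearson's r between the arms was -0.80 (permutation p = 0.00274, adjusted p = 0.00822 over 6 pairs of arms) and Spearman's rho -0.70 (permutation p = 0.0202, adjusted p = 0.0606). Without Control 19 and TPN 6, the rats farthest from the median of miR-99a-5p, r was -0.41 (exact permutation p = 0.276), so the relation was not shown apart from those rats.

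The arms of miR-99b, by contrast, moved together over the rats. The ratio of miR-99b-5p to miR-99b-3p reads stayed between 37.7 and 58.2 in all 11 rats. Pearson's r was 0.83 (permutation p = 0.00211, adjusted p = 0.00822 over 6 pairs) and rho 0.81 (permutation adjusted p = 0.0253), and r was 0.82 without Control 5 and Control 16, the rats farthest from the median. For the other 4 pairs of arms r lay between 0.17 and 0.58, and none had an adjusted permutation p under 0.05 (smallest 0.118).

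**Figure D3:**
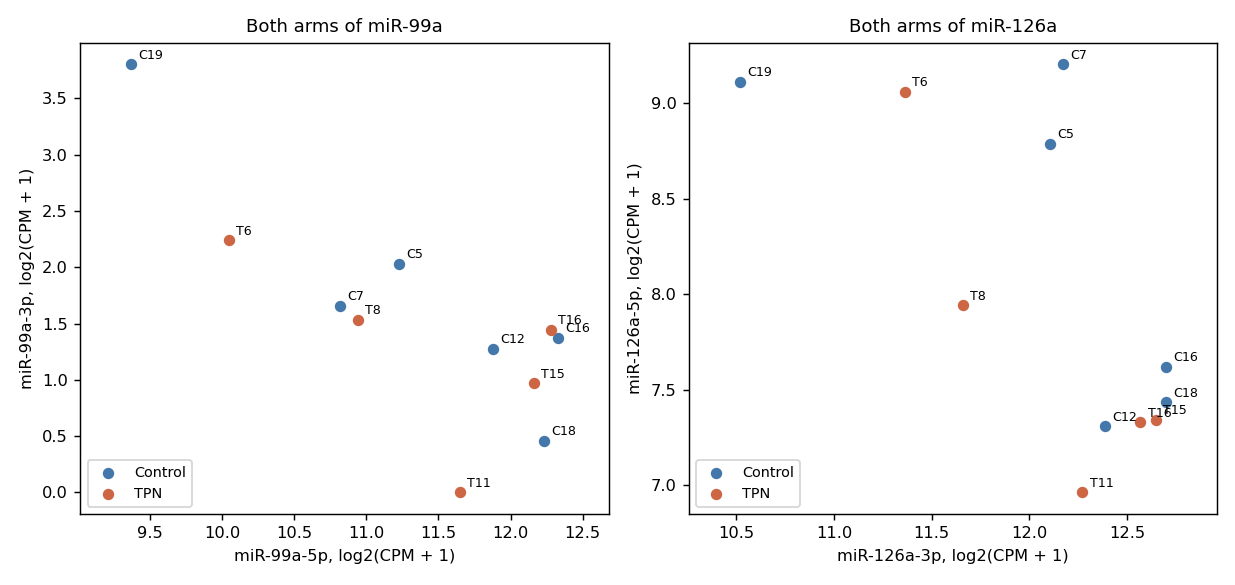
log2(CPM + 1) of one arm against the other in each Control (blue, C) and TPN (orange, T) rat, for miR-99a (left) and, for comparison, the endothelial microRNA miR-126a (right). In both panels Control 19 and TPN 6 lie at the upper left, with a low major arm and a high minor arm.

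Neighbours and paralogues were compared within each library, which removes the scaling between libraries. None of the 9 log2 ratios of CPM + 1 differed between the groups beyond the spread (two-sided exact permutation tests, smallest p = 0.134, each adjusted p = 0.677). The one with that smallest p was miR-10a-5p to miR-10b-5p, with a mean log2 ratio of 5.36 ± 0.65 (SD, n = 6) in the Control rats and 5.91 ± 0.40 (SD, n = 5) in the TPN rats. There were 23.9 miR-10a-5p reads per miR-10b-5p read in Control 7 and 93.0 in TPN 15, the extremes of the 11 rats.

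How steady a ratio was over the rats depended on the pair. The log2 ratio of miR-125a-5p to miR-125b-5p, from different chromosomes, had an SD of 0.23 over the 11 rats, as did that of miR-100-5p to miR-125b-5p. The ratios of miR-99a-5p to miR-99b-5p, to let-7c-5p, its neighbour on chromosome 11, and to miR-125b-5p had SDs of 0.93, 0.91 and 0.67. miR-99a-5p was 2.0 times as abundant as miR-99b-5p in Control 19 and 10.3 times in TPN 16. The means and SDs of the log2 ratio of miR-99a-5p to let-7c-5p were 1.13 ± 0.94 in Control and 1.503 ± 0.94 in TPN (exact permutation adjusted p = 0.677).

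**Figure D4:**
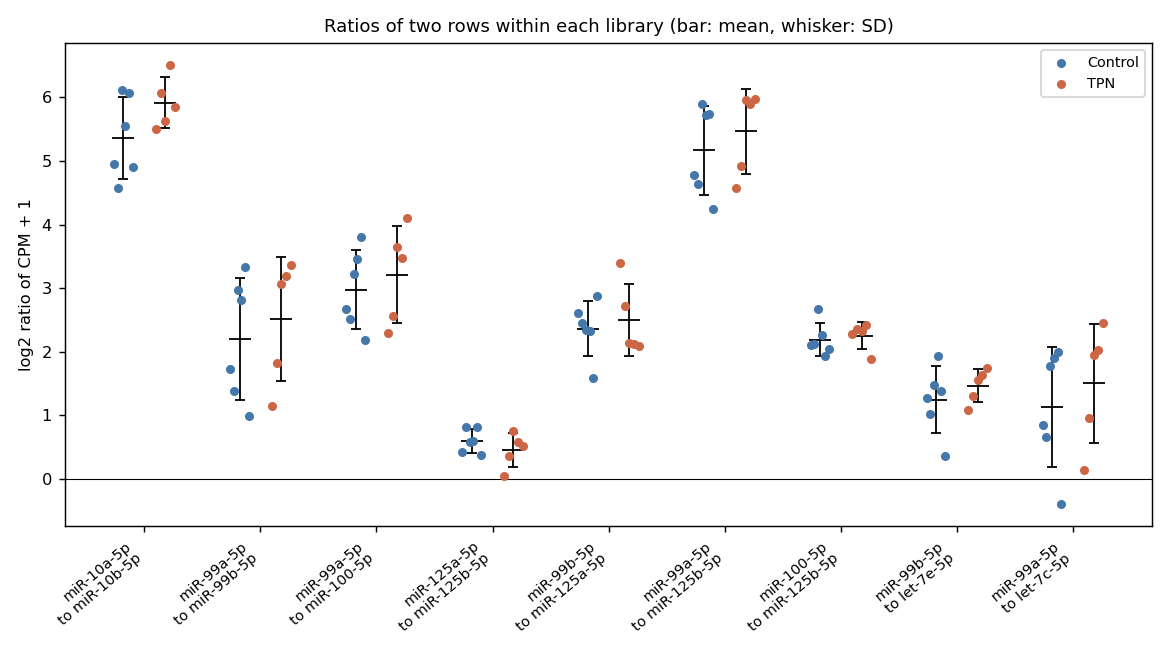
Log2 ratio of CPM + 1 between 2 rows of the same library (vertical axis) for 9 pairs, with each Control (blue) and TPN (orange) rat as a point, the mean as a bar and the SD as whiskers. The groups overlap for each pair, and the pairs with miR-99a-5p spread most, with an SD of 0.93 against miR-99b-5p.

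Members differed in how far rats of 1 group lay apart. With group means removed, miR-99a-5p had a between-rat SD of 1.04 on the log2 scale, the 9th widest of the 168 rat-named rows that averaged 10 CPM or more, and miR-10b-5p one of 0.83, the 23rd widest. The median row had 0.51. miR-100-5p (0.50), miR-125b-5p (0.47) and miR-125a-5p (0.61) lay near it, whereas miR-10a-5p (0.35) and miR-99b-5p (0.36) were steadier. miR-99b-3p, with 0.22, ranked 163rd.

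In each of the 5 planned pairs, which join cluster neighbours or paralogues, Pearson's r was positive over the 11 rats. miR-10a-5p and miR-10b-5p, from different Hox clusters, had a Pearson's r of 0.89 (permutation p = 0.00024, adjusted p = 0.0012 over 5 pairs) and a rho of 0.84 (adjusted p = 0.0111). Without Control 7 and Control 19 r was 0.80 (exact permutation p = 0.0117), and among the 7 rats numbered 10 or more it was 0.87 (exact permutation p = 0.0125). Adjusted over the 5 pairs, the first of these exact permutation p was 0.0584.

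The pairs among miR-99a-5p, miR-100-5p and miR-125b-5p rested on single rats. r was 0.88 for miR-100-5p and miR-125b-5p (permutation adjusted p = 0.00138), 0.81 for miR-99a-5p and miR-125b-5p (permutation adjusted p = 0.00423) and 0.81 for miR-99a-5p and miR-100-5p (permutation adjusted p = 0.00423), with rho of 0.72, 0.77 and 0.66 (permutation adjusted p = 0.0268, 0.0184 and 0.039). Without Control 19 and TPN 6 these r were 0.61, 0.38 and 0.31, and none passed an exact permutation test. With both of those rats out the relations were therefore not shown, among fewer rats and over a narrower range. miR-99b-5p and miR-125a-5p, which lie within 1 cluster on chromosome 1, had an r of 0.61 (permutation adjusted p = 0.045) and a rho of 0.53 (permutation adjusted p = 0.0999), and r was 0.54 without Control 5 and Control 16. Among the 7 rats numbered 10 or more, which hold Control 19 but not TPN 6, the 4 values of r were 0.87, 0.91, 0.89 and 0.79. Their exact permutation p were 0.0163, 0.000992, 0.022 and 0.0413. Too few rats were numbered below 10 to give an r. The labels do not call the rat numbers a batch.

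Over all 21 pairs of the main members, a comparison chosen after these values were seen, the highest r joined miR-125a-5p and miR-125b-5p (0.94, permutation adjusted p = 0.00063 over 21 pairs, rho 0.90, 0.86 without Control 19 and TPN 6). The miR-10 pair and miR-99a-5p ran against each other. r was -0.66 between miR-10a-5p and miR-99a-5p and -0.67 between miR-10b-5p and miR-99a-5p (permutation adjusted p = 0.055 for each), with rho of -0.51 and -0.54. Without Control 7 and Control 19 these r were -0.36 and -0.43, and neither passed an exact permutation test. No relation with depth passed. Over 14 relations of the 7 main members with log10 of the total reads and with the share of predicted rows, no adjusted permutation p was under 0.05, and Pearson's r lay between -0.22 and 0.23. Without Control 12 and Control 19, rho with log10 of the total reads ran from -0.78 (miR-125b-5p) to -0.033 (miR-10a-5p). With the predicted share it ran from -0.017 (miR-10a-5p) to 0.70 (miR-125b-5p). These rho were not tested.

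**Figure D5:**
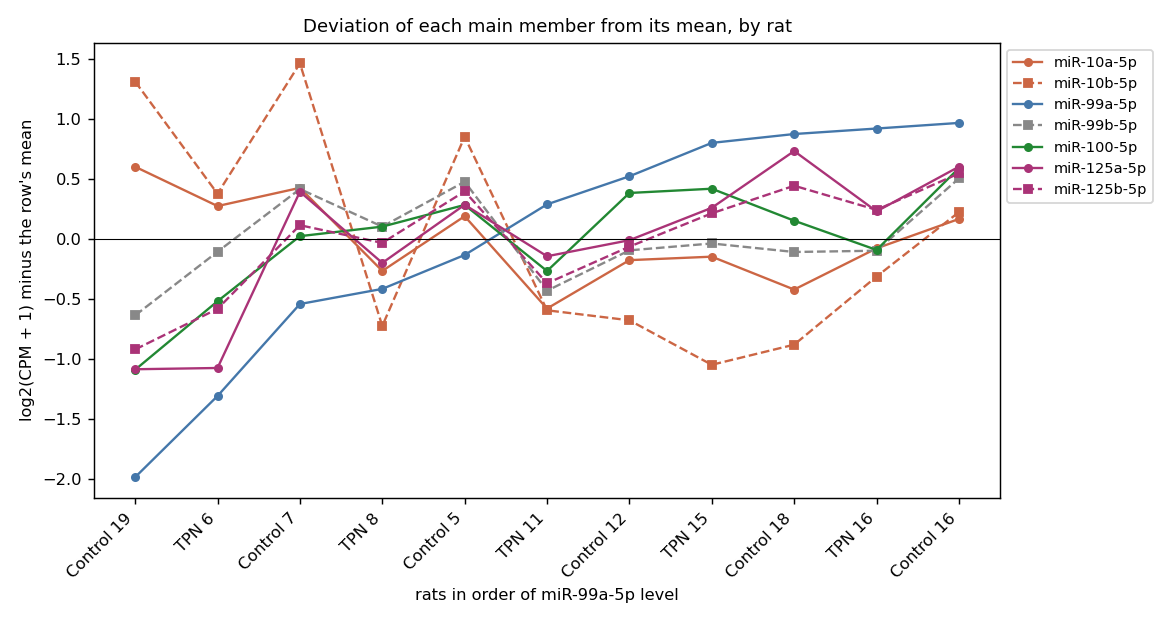
log2(CPM + 1) of each main member minus its mean over the 11 rats (vertical axis), with the rats in order of their miR-99a-5p level. miR-99a-5p climbs from Control 19 (661 CPM) to Control 16 (5134 CPM) while both miR-10 lines run lower on the right than in Control 19, and Control and TPN rats alternate along the axis.

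Rows outside the family with the most similar pattern were found by Pearson's r over the 11 rats among 159 rat-named rows, as a description. For the mean of the 7 standardised main members they were miR-455-3p (0.89), let-7c-5p (0.87), miR-139-5p (0.86), miR-192-5p (0.86) and miR-185-5p (0.85). For miR-10a-5p they were miR-145-5p (0.94), miR-320-3p (0.89) and miR-203b-3p (0.87), and for miR-10b-5p miR-320-3p (0.96), miR-126a-5p (0.87) and miR-582-3p (0.85). The nearest rows of the single members other than miR-10a-5p were added after the values were seen. For miR-99a-5p they were miR-671 (0.97), miR-128-3p (0.97) and miR-24-2-5p (0.97). For miR-125b-5p they were miR-192-5p (0.97), let-7a-5p (0.96) and let-7g-5p (0.92).

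Rows of the hepatocyte, mesenchymal and endothelial marker lists were correlated with miR-10a-5p and miR-99a-5p, 34 relations in all, chosen after the values were seen. They ran both ways within each list. Of the 8 hepatocyte rows (both arms of miR-122, miR-192, miR-194 and miR-148a), 3 had a positive and 5 a negative r with miR-99a-5p. miR-122-5p had 0.95 (permutation adjusted p = 0.000227, rho 0.90, 0.92 without Control 19 and TPN 6) and miR-192-5p 0.90 (permutation adjusted p = 0.00357, 0.58 without the same rats). miR-148a-5p had -0.81 (permutation adjusted p = 0.00779, -0.70 without Control 19 and TPN 6) and miR-192-3p -0.78 (permutation adjusted p = 0.0133, -0.71 without Control 19 and TPN 11). The other 4, among them miR-148a-3p with -0.61, miR-194-5p with -0.40 and miR-122-3p with -0.30, had no adjusted permutation p under 0.05.

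With miR-10a-5p, 6 hepatocyte rows had a positive and 2 a negative r, and miR-192-3p alone passed (0.82, permutation adjusted p = 0.00779, 0.64 without Control 19 and TPN 11). Of the 7 mesenchymal rows (miR-143, miR-145, miR-199a and miR-214), 5 had a positive and 2 a negative r with miR-10a-5p. miR-145-5p, the smooth muscle and stellate cell microRNA, had 0.94 (permutation adjusted p = 0.000227, rho 0.88, 0.87 without Control 19 and TPN 11) and miR-143-3p 0.86 (permutation adjusted p = 0.00398, 0.69 without the same rats). The other arm miR-145-3p had -0.43. With miR-99a-5p 2 mesenchymal rows were positive and 5 negative, and miR-145-3p (0.87), miR-145-5p (-0.82) and miR-143-3p (-0.80) passed (permutation adjusted p = 0.00398, 0.00779 and 0.00785). Rows outside the lists also had r of this size with miR-99a-5p, such as miR-151-3p (0.95) and miR-30a-5p (-0.92). The share of all rows that would pass was not computed. Among the 7 rats numbered 10 or more, r was 0.94 for miR-145-5p with miR-10a-5p and 0.95 for miR-122-5p with miR-99a-5p (exact permutation p = 0.00278 and 0.0206).

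The summed level of the mesenchymal list ran from 18657 to 37661 CPM in Control and from 12710 to 28086 CPM in TPN, and that of the hepatocyte list from 564720.0 to 797115 CPM and from 719785 to 785590.0 CPM. No row of either list was at 0 in all rats. Their part in the members' levels was not tested.

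The let-7 partners of the clusters, rows of let-7a, let-7c and let-7e, likewise held no row called by limma-trend, DESeq2, edgeR or limma-voom. Of all rows DESeq2 called 21.1%, and limma-trend, edgeR and limma-voom 0% each. Of 8 rows, 7 were tested, in CPM 6 had negative values and 1 a positive one, with a median log2 fold change of -0.26, equal to that of all rat-named rows. let-7e-5p, which lies between Mir99b and Mir125a, averaged 239 CPM ± 68.8 (SD, n = 6) in the Control rats and 176 CPM ± 44.9 (SD, n = 5) in the TPN rats (log2 fold change -0.43 ± 0.25, limma-trend adjusted p = 0.309). let-7c-5p had -0.26 ± 0.18 (limma-trend adjusted p = 0.335) and let-7a-5p -0.13 ± 0.22 (limma-trend adjusted p = 0.772). let-7a-2-3p, the arm particular to the gene beside Mir100, had 0 reads of 81832143, which allows up to 0.0367 CPM. let-7a-1-3p and let-7c-2-3p had nearly the same values in each rat, 14.3 CPM on average in Control for both, and are uncertain as separate rows.

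The other Hox cluster microRNAs of the table were all but absent. miR-196a-5p had 2 reads and miR-196b-5p 10 reads in the 11 libraries together, too few to test. Limma-trend, edgeR and limma-voom called no row of the marker lists. DESeq2 called 3, where it called 21.1% of all rows. These were miR-451-5p of 3 tested red cell rows (log2 fold change -1.76, adjusted p = 0.0415) and miR-148a-3p of 8 hepatocyte rows (0.57, adjusted p = 0.00356). The third was miR-200a-5p of 7 biliary and epithelial rows (0.85, adjusted p = 0.04999). Of the 280 tested rat-named rows 222 had a negative value in CPM, and 97, 132 and 66 with TMM, RLE and upper-quartile scaling. The signs that follow are those of limma-trend in CPM. The endothelial list (miR-126a) had 1 positive and 1 negative value, the blood and immune list 1 and 6, the red cell list 0 and 3, the biliary and epithelial list 5 and 2, the nerve and brain list 1 and 1, the muscle list 1 and 2, the hepatocyte list 2 and 6 and the mesenchymal list 0 and 7.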

How the data were processed

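Per the labels' protocols, liver RNA was taken up in TRIzol and read on an Illumina machine. The values are CPM as the authors deposited them, in 1 table with a column per rat that sums to 1000000. The submitters' processing notes list DESeq2, with no role. No aligner, counting method, microRNA database or build is given in the sources used here. Dividing a column by its smallest value above 0 gave whole reads (100% whole within 0.001). A count of 0 allows up to 3 reads, 0.203 CPM in TPN 8 and 2.14 CPM in Control 12, for counting error only.

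Rows averaging 1 CPM or more were fitted with limma-trend on log2(CPM + 1), which understates changes of rare rows, over all 11 rats with no covariate and Benjamini-Hochberg adjustment over 535 rows (R 4.3.3, limma 3.58.1). edgeR 4.0.16, DESeq2 1.42.0 and limma-voom were run on the recovered reads. Shares and ratios were compared by the size of the mean difference over all 462 regroupings. Correlations used 100000 permutations with 10 or more rats (the smallest p is 1e-05) and all orders with fewer. The scripts were tested on simulated data. All rows of the family were named, with the let-7a, let-7c and let-7e partners, miR-196 and miR-615 as other Hox cluster microRNAs, cell type marker lists, and the most similar rows by Pearson's r. The members and lists were chosen with earlier results of these data known. Every pair of libraries differed beyond sampling noise (lowest chi-square per degree of freedom 180.3, Control 16 and Control 18). The labels number the rats and give no batch. Comparisons over all 21 pairs of main members, with marker rows, by rat number and between arms of other hairpins were chosen after the values were seen.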

Additional observations from a re-analysis of the deposited data

Results flagged for a closer look

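Of 50 groups of values tested for a sample far from the others, 4 held one, where chance alone gives about 1 in 20. Control 19 had 12.97 CPM of miR-99a-3p, against 0.375 to 3.08 CPM in the other Control rats. Control 18 had 5.87 CPM of miR-125b-1-3p, against 1.37 to 2.85 CPM. The joint share of the member rows was 1.33% in Control 16, against 1.01% to 1.13% in the other Control rats. The log2 ratio of miR-100-5p to miR-125b-5p was 1.88 in TPN 16, against 2.28 to 2.42 in the other TPN rats.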

How the results depend on the processing

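No member was called under any of the 26 alternatives, and over all rows only DESeq2 made calls (113). No paired analysis was possible because the groups share only the rat number 16. The signs of small member differences depended on the scaling. Log2 fold changes turned positive with TMM for miR-100-5p (0.35), miR-10a-3p (0.34), miR-10a-5p (0.19), miR-125a-5p (0.14), miR-125b-1-3p (0.27), miR-125b-2-3p (0.10), miR-125b-5p (0.28), miR-99b-3p (0.20) and miR-99b-5p (0.27), and in that order with upper-quartile scaling (0.52, 0.48, 0.36, 0.31, 0.39, 0.27, 0.45, 0.35 and 0.45), edgeR (0.26, 0.37, 0.19, 0.036, 0.24, 0.087, 0.19, 0.18 and 0.19) and limma-voom (0.35, 0.31, 0.19, 0.091, 0.37, 0.11, 0.25, 0.17 and 0.27). For miR-100-5p, miR-10a-3p, miR-10a-5p, miR-125b-1-3p, miR-125b-5p, miR-99b-3p and miR-99b-5p they did so with RLE (0.21, 0.22, 0.044, 0.18, 0.14, 0.065 and 0.13), DESeq2 (0.16, 0.22, 0.023, 0.13, 0.094, 0.048 and 0.090) and reads outside the 10 most abundant rows as the total (0.17, 0.19, 0.011, 0.16, 0.11, 0.034 and 0.094). As percents of that smaller total the shares of all members and of the miR-99, miR-100 and miR-125 rows were higher in TPN by 0.81 and 0.96 percentage points.

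Without Control 5, 12 and 19 the sign turned for miR-125a-3p (-0.060), miR-99a-3p (0.074), miR-99a-5p (-0.38) and the ratios of miR-99a-5p to miR-100-5p (-0.050) and let-7c-5p (-0.015). In rats numbered below 10, an alternative chosen after seeing the data, it turned for miR-125b-1-3p (0.29), miR-99a-3p (0.042), miR-99a-5p (-0.52) and the ratios of miR-99a-5p to miR-99b-5p (-0.076), miR-100-5p (-0.16) and let-7c-5p (-0.21). In those numbered 10 or more it turned for miR-100-5p (0.011), miR-10a-3p (0.11), miR-125a-5p (0.056), miR-125b-5p (0.028), the miR-99, miR-100 and miR-125 share (0.057) and the ratios of miR-125a-5p to miR-125b-5p (0.028), miR-99b-5p to miR-125a-5p (-0.16) and miR-100-5p to miR-125b-5p (-0.017). Leaving out 1 rat at a time, signs turned for miR-10a-3p (-0.14 to 0.038), miR-125b-1-3p (-0.22 to 0.18), miR-99a-5p (-0.28 to 0.45), the same share (-0.072 to 0.044) and the ratio of miR-99b-5p to miR-125a-5p (-0.093 to 0.23). The causes were not tested.

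Correlations no longer passed without the rats farthest from the median for miR-99b-5p and miR-125a-5p (0.54), miR-99a-5p and miR-125b-5p (0.38), miR-100-5p and miR-125b-5p (0.61), miR-99a-5p and miR-100-5p (0.31) and miR-10a-5p and miR-10b-5p (0.80, adjusted p = 0.0584 by exact permutation). That of miR-99b-5p and miR-125a-5p also did not pass without Control 5, 12 and 19 (0.40), with reads outside the 10 most abundant rows as the total (0.54) or with group means removed (0.58), nor did that of miR-99a-5p and miR-100-5p without Control 5, 12 and 19 (0.67). Rows of a few reads per library are limited by depth, which is lowest in Control 12.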

Other observations

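The opposed arms of miR-99a had counterparts in other hairpins, a pattern looked for after the values were seen and given as a description. The arms of miR-126a, a microRNA of endothelial cells, sat on both sides of the family. miR-126a-3p had a Pearson's r of 0.96 with miR-99a-5p over the 11 rats (permutation p = 2e-05, adjusted p = 0.000227 over 34 relations, rho 0.93, 0.90 without Control 19 and TPN 6). miR-126a-5p had an r of -0.83 with miR-99a-5p (permutation adjusted p = 0.00779, rho -0.67, -0.80 without Control 7 and Control 19) and of 0.86 with miR-10a-5p (permutation adjusted p = 0.00398, rho 0.81, 0.76 without Control 7 and Control 19). There were 2.66 miR-126a-3p reads per miR-126a-5p read in Control 19, 4.94 in TPN 6 and 39.97 in TPN 11.

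Outside the family, 27 hairpins had both arms at a mean of at least 10 CPM. In 8 of them (miR-28, miR-30b, miR-126a, miR-140, miR-142, miR-145, miR-195 and miR-361) one arm had an r of at least 0.5 with miR-99a-5p and the other of at most -0.5, and in 3 both arms lay past 0.5 on the same side. In 12 of the 27 the arms were negatively correlated with each other. miR-145-5p, the row most like miR-10a-5p, had an r of -0.82 with miR-99a-5p and miR-145-3p one of 0.87, and the ratio of their CPM + 1 ran from 3.94 to 60.5 between rats. Both arms of a hairpin are cut from 1 precursor. No cause of these patterns was tested.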
